A study of Mus musculus with 2 samples.

Results

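The genes described here are *Islr2*, its neighbour *Islr* and 6 further genes for membrane proteins with extracellular leucine-rich repeats, *Lrrn1*, *Lrrn2*, *Lrrn3*, *Lingo1*, *Lrig1* and *Lrig3*. They were taken by gene name, with every probe that carries one of these names, and make up 8 of 37071 gene names and 13 of 56601 probes on the array. The set was proposed with the ratios of these same arrays known, *Islr2* among them, so all ratios of the 8 genes are given as a description and without a test. RNA from the brain of E10.5 embryos was compared on 2 two-colour Agilent arrays, and the methods give the dissected regions as forebrain and midbrain. On each array, wild type RNA (strain C57BL/6 in the labels) was labeled with Cy3 and RNA of luxoid embryos (Plzf lu/lu) with Cy5. The strain background of the luxoid embryos is not in the labels. The luxoid allele is a spontaneous point mutation in the first coding exon of *Plzf* (*Zbtb16*) that truncates the protein, and it is present in all cells of the embryo. The labels call the arrays biological replicates, and the number of embryos behind each sample is not given in the sources used here.

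The dyes were not exchanged, so dye and genotype cannot be told apart, and each genotype was measured in 2 samples. The mutated gene *Zbtb16* was lower in the Cy5 channel of both arrays at its brighter probe, 0.397 of wild type on array 1 and 0.386 on array 2, which fits the labels. In bulk RNA, fewer cells of a type and less RNA per cell cannot be told apart. After the signal filter described below, the median log2 ratio of all genes was 0.02 for array 1 and -0.00 for array 2.

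Proteins with extracellular leucine-rich repeats sit on the surface of neurons and their precursors, where the repeats bind other receptors or ligands. Islr2, also called Linx, is known as a transmembrane protein of growing axons that associates with receptor tyrosine kinases such as Ret. Islr, also called Meflin, is known from mesenchymal and stromal cells. The Lrrn proteins are neuronal repeat proteins of the developing neural tube, Lingo1 is a co-receptor of the Nogo receptor complex, and the Lrig proteins are best known for restraining ErbB and other receptor tyrosine kinases.

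The ratio of each gene rests on short probes, and the probe ends are shown for the 4 genes whose values differ most between channels. Each probe is 60 bases long, and the last 30 bases are given 5′ to 3′, with the hexamer AATAAA, the common polyadenylation signal, in capitals.
*Islr2*: gtatgtaaactgtcAATAAAataatcgatt
*Islr*: ctctctgatgagatatggaaatcatccctc
*Lrrn3*: gagtatgtggacctcttttataaggaaaaa
*Lrrn1*: ctgtactgtaatgttgtatcaactgaactg
The *Islr2* probe (NM_001161536) lies on chromosome 9 at 58044113 to 58044172 (mm9, minus strand), and it is the one probe of these 4 that holds the hexamer, as do 9.77% of all gene probes. The *Islr* probe (NM_012043) lies on the same strand at 58004219 to 58004278, 39.8 kb away. The *Lrrn3* probe (NM_010733) lies on chromosome 12 at 42178327 to 42178386 (minus strand), and the *Lrrn1* probe (NM_008516) on chromosome 6 at 107519883 to 107519942 (plus strand). Exon and UTR annotation of this build was not used here. The probes of *Islr2*, *Lrrn1* and *Lrrn3* have the same base composition, with 35.0% G and C each, and that of *Islr* has 41.7%, which is also the median of all gene probes.

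The start regions of *Islr2* and *Islr* differ in a feature that the choice of genes did not use, the number of CG dinucleotides. The windows below run from 250 bases before to 50 bases after the annotated start (RefSeq, GRCm38.p6), 5′ to 3′ on the minus strand, with each CG in capitals. The *Islr2* window is chr9:58204270-58204569, the one farthest upstream of its 3 annotated starts, and the *Islr* window is chr9:58158505-58158804.
*Islr2*: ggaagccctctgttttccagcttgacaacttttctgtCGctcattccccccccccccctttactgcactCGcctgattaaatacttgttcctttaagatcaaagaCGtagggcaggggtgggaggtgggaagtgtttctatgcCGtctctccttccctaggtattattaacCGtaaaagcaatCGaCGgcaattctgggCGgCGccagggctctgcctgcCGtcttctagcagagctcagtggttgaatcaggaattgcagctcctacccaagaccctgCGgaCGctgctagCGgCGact
*Islr*: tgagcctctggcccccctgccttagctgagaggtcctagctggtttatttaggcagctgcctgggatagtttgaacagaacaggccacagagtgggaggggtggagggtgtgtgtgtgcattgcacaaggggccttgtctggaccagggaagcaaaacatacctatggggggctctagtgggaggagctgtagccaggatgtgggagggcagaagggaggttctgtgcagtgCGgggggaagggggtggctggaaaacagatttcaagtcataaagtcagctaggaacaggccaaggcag
The *Islr2* window holds 14 CG dinucleotides and the other *Islr2* windows hold 6 and 11, whereas the *Islr* window holds 1. The median of all 32851 windows is 7. *Lrrn1* has 24, *Lrrn2* 16, *Lrig1* 35, *Lrig3* 36 and *Lingo1* 35 and 32, so the *Islr* window is the one below that of every other gene of the set in the table. *Lrrn3* is named only. None of the 10 windows holds TATAAA on either strand, which is found in 13.6% of all windows.

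*Islr2* was higher in lu/lu than in wild type on both arrays. Its processed signal, which is the brightness of the spot once background and dye bias have been corrected, was 202 in wild type and 424 in lu/lu on array 1. On array 2 it was 244 in wild type and 668 in lu/lu. Both lu/lu channels lay above both wild type channels. With 2 samples of each genotype such an order can easily arise without a difference, here and for the genes below. The share of all genes with it was not counted. The lu/lu signal was 2.10 times that of wild type on array 1 and 2.74 times on array 2, and the log2 ratios averaged 1.26 (SD 0.27, n = 2 arrays). The error that the scanner software gave for the log2 ratio of the spot was 0.23 on array 1 and 0.24 on array 2. The study required a signal above 200 and a signal-to-noise ratio of at least 5, and the wild type signal of *Islr2* on array 1 lay just above that minimum, although its lowest signal-to-noise ratio was 24.1. *Islr2* has 1 probe on the array, so no second probe could be set against it.

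*Islr* did not share this pattern. Its signal was 181 in wild type and 82.2 in lu/lu on array 1, and 75.5 in wild type and 65.9 in lu/lu on array 2. The wild type sample of array 1 stood apart, and the 3 other channels lay close together. The ratio was 0.455 on array 1 and 0.873 on array 2, and the log2 ratios averaged -0.67 (SD 0.66, n = 2 arrays). The scanner error was 0.23 for array 1 and 0.21 for array 2, and the log2 ratio of array 2 was smaller than its error. All 4 signals were below 200 and well above background.

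**Figure D1:**
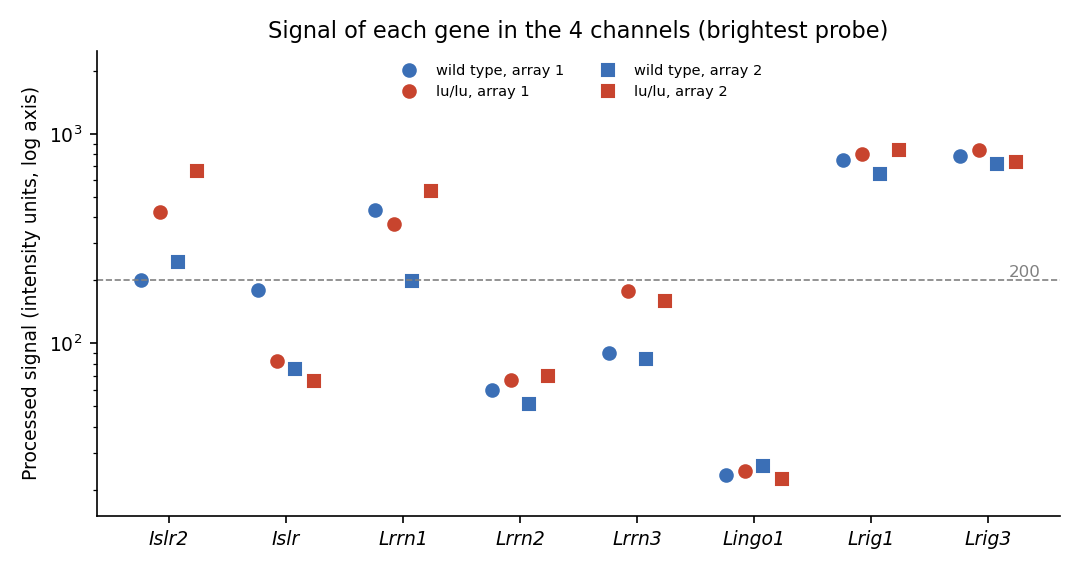
Processed signal (vertical log axis, intensity units) of the brightest probe of each of the 8 genes in wild type (blue) and lu/lu (red) on array 1 (circles) and array 2 (squares), with the minimum of 200 as a dashed line. *Islr2* and *Lrrn3* have both lu/lu points above both wild type points, whereas the wild type points of *Islr* and *Lrrn1* lie far apart. Heights can be compared within a gene and not between genes, because each probe has its own sensitivity.

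The log2 ratio of *Islr2* exceeded that of *Islr* by 2.21 on array 1 and by 1.65 on array 2 (mean 1.93, SD 0.39, n = 2 arrays). On array 1 the gap was made up almost equally by a high *Islr2* and a low *Islr*, and on array 2 mainly by *Islr2*. Between the arrays, the wild type signal of *Islr* differed by -1.26 (array 2 minus array 1, log2), a larger absolute difference than in 99.1% of the 23283 genes well above background in all channels. The same difference in the lu/lu samples was -0.32. For *Islr2* these differences were 0.28 in wild type and 0.66 in lu/lu. Without array 1 the mean log2 ratio of *Islr* is that of array 2, -0.20, and without array 2 it is that of array 1.

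The Lrrn family was not uniform. *Lrrn3* was higher in lu/lu on both arrays by close to the same factor. Its signal was 89.6 in wild type and 178 in lu/lu on array 1, and 83.7 in wild type and 160 in lu/lu on array 2. The genotypes did not overlap, and the samples of a genotype lay near each other. The ratios were 1.98 and 1.91, and the log2 ratios averaged 0.96 (SD 0.04, n = 2 arrays). They differed by -0.06 between the arrays (array 2 minus array 1), against a median absolute difference of 0.16 over the genes well above background. All 4 signals of *Lrrn3* were below 200, so the gene lies outside the study's signal filter, and the lowest signal-to-noise ratio was 12.3.

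*Lrrn1* gave opposite pictures on the arrays. On array 1 its signal was 431 in wild type and 373 in lu/lu. On array 2 it was 199 in wild type and 536 in lu/lu. The genotypes overlapped, and the wild type samples were farther apart than the lu/lu samples. The ratio was 0.865 on array 1 and 2.69 on array 2, and the mean log2 ratio of 0.61 had an SD of 1.16 (n = 2 arrays). The difference of 1.64 between the log2 ratios was larger in absolute size than in 99.8% of the genes well above background. The wild type signal of array 2, just under the minimum of 200, kept *Lrrn1* outside the filter. A further *Lrrn1* probe (AK012914) was not well above background in any channel, and no ratio is given for it.

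*Lrrn2* was dim and slightly higher in lu/lu. Its signal was 59.8 in wild type and 66.9 in lu/lu on array 1, and 51.4 and 70.1 on array 2. The genotypes did not overlap. The ratios were 1.12 and 1.36, and only that of array 2 was beyond 1.3.

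**Figure D2:**
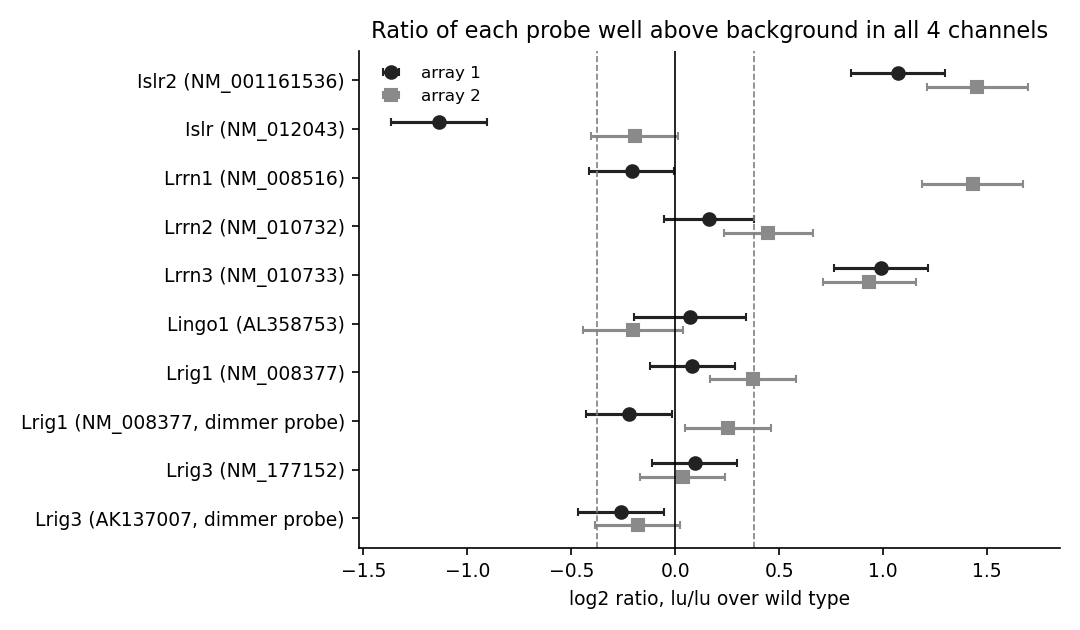
Log2 ratio of lu/lu to wild type (horizontal axis) on array 1 (black circles) and array 2 (grey squares) for the 10 of 13 probes well above background in all 4 channels. Bars are the error of the single spot from the scanner software and not a spread between samples, and dashed lines mark a ratio of 1.3 in either direction. *Islr2* and *Lrrn3* lie beyond the right dashed line on both arrays, and *Lrrn1* and *Islr* have arrays that differ by far more than the spot error.

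*Lingo1*, the Nogo receptor partner, was hardly measured. Its RefSeq probe (NM_181074, chromosome 9, 56467301 to 56467360, mm9) was not well above background in any channel, with signals between 4.07 and 7.02. The brighter probe that carries the name (AL358753, 56483150 to 56483209) is listed on the opposite strand to the gene, whereas 99.6% of the probes named by an NM accession are listed on the strand of their gene. Whether this probe measures *Lingo1* RNA was not tested. Its signals were 23.3 in wild type and 24.5 in lu/lu on array 1, and 25.9 and 22.5 on array 2, and the genotypes overlapped.

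The Lrig genes stayed within 1.3-fold of wild type at every probe that was well above background in all channels. *Lrig1*, a negative regulator of ErbB receptors, had a signal of 754 in wild type and 798 in lu/lu on array 1, and of 647 and 837 on array 2. Both lu/lu channels exceeded both wild type channels, by a ratio of 1.06 on array 1 and of 1.29 on array 2. The second *Lrig1* probe, at 104.7 to 143.7 in the 4 channels, had ratios of 0.858 and 1.19. The probes of *Lrig1* thus agreed in direction on array 2 and not on array 1.

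*Lrig3*, a relative known for its part in inner ear formation, was nearly level between genotypes. Its signal was 785 in wild type and 837 in lu/lu on array 1, and 719 and 738 on array 2. The ratios were 1.07 and 1.03 and the genotypes overlapped. A second probe (AK137007) gave ratios of 0.835 and 0.883, with signals between 202 and 285. These probes differ in the sign of their log2 ratio on both arrays, and neither reached 1.3-fold. The third probe (AK035166) was well above background in 3 of 4 channels, with signals no higher than 12.3.

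The study's limits of signal, signal-to-noise ratio and 1.3-fold were asked here of all 4 channels and of both arrays, a reading stricter than the methods spell out, and *Zbtb16* itself, with a lu/lu signal of 172 on array 1, did not pass. By this rule 3 of the 8 genes passed the filter (*Islr2*, *Lrig1* and *Lrig3*), and 1 of these, *Islr2*, was beyond 1.3-fold higher. Over the whole array 2.58% of 10600 genes were higher and 0.736% lower by this rule. The study's own list at 1.3-fold holds fewer genes than that, and it includes *Zbtb16*. What shortened that list is not known here. Where the filter asked only for spots well above background, all 8 names had such a probe, that of *Lingo1* being the one on the opposite strand. *Islr2* and *Lrrn3* were then higher beyond 1.3-fold and none was lower, against 2.52% and 2.07% of 23283 genes. The genes were chosen with these ratios known, and nothing is read from the counts.

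**Figure D3:**
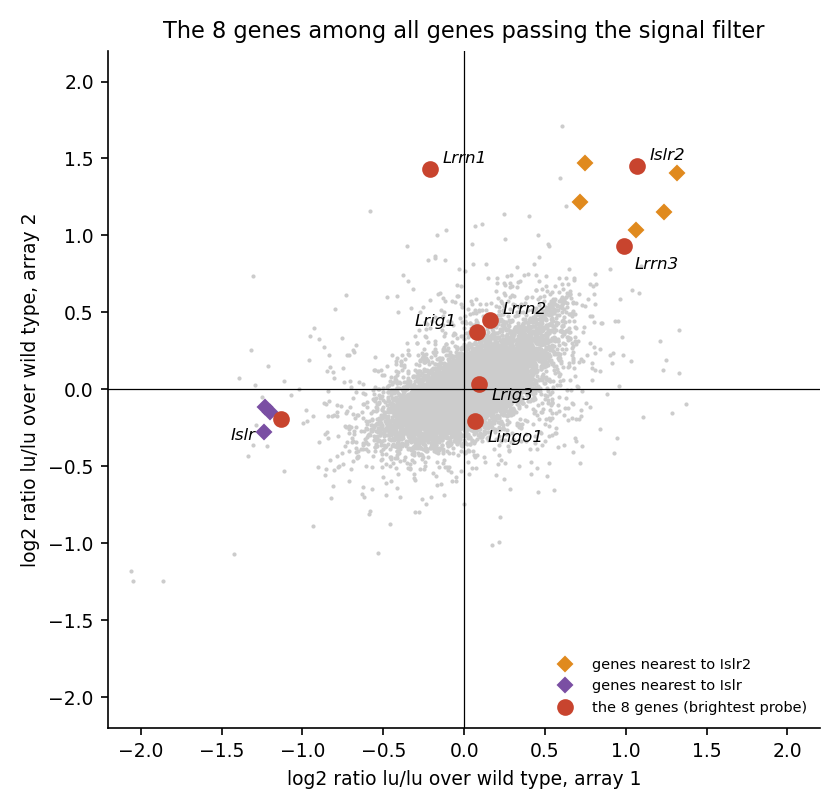
Log2 ratio of lu/lu to wild type on array 1 (horizontal) and array 2 (vertical) for the 10600 genes that passed the signal filter (grey), with the brightest probe of each of the 8 genes (red), the 5 genes nearest to *Islr2* (orange) and the 3 nearest to *Islr* (violet). Of the genes that passed, 1 lies outside the axes. *Islr2* and *Lrrn3* sit at the upper right edge of the cloud, *Lrrn1* above it and *Islr* to its left.

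Of all genes passing the filter, the 5 whose pair of log2 ratios lay nearest to that of *Islr2* over the 2 arrays included *Sox2ot* at a distance of 0.33, *Nrcam* at 0.34, *Shh* at 0.42 and *Foxa2* at 0.42. *Shh*, the ligand of the floor plate, had ratios of 2.09 and 2.05, and *Foxa2*, a floor plate transcription factor, had 1.64 and 2.33. The likeness rests on 2 points per gene, and the study selected *Islr2*, *Sox2ot*, *Nrcam*, *Shh* and *Foxa2* on these arrays. The genes nearest to *Islr* were *Alas2* at a distance of 0.08, *Blvrb* at 0.12 and *Smim1* at 0.13. *Alas2* encodes the erythroid enzyme that opens heme synthesis, and *Blvrb* and *Smim1* are also abundant in red cells. Their ratios lay between 0.424 and 0.435 on array 1 and between 0.825 and 0.922 on array 2.

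Few other genes of the *Islr2* region could be set beside it. Within 500 kb on either side of the *Islr2* probe, 28 further gene names are probed, of which 7 passed the signal filter. None of the 7 reached 1.3-fold on each array in a shared direction. Over the whole array 2.58% of genes were higher and 0.736% lower by this rule, so 0 of 7 says little. Limma called 0 of the 7 after adjustment over the 10600 genes tested, with a lowest adjusted p of 0.177. At an unadjusted p under 0.05 limma called 1 of them, against 15.7% higher and 12.1% lower over the whole array, and at adjusted p under 0.05 it called 0.0283% of all genes as higher and 0 as lower. The 7 were *Clk3*, with log2 ratios of 0.00 and 0.14, *Arid3b* with 0.10 and -0.02, *Ubl7* with -0.19 and -0.02, *1600029O15Rik* with -0.02 and 0.07, *Pml* with 0.02 and -0.05, *Cd276* with 0.52 and 0.06, and *Nptn* with 0.50 and 0.08. *1600029O15Rik* and *Pml*, the nearest of these to *Islr2*, were flat on both arrays.

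On the other side of *Islr*, *Stra6*, the receptor for retinol-binding protein, had signals of 152 in wild type and 90.1 in lu/lu on array 1, and of 125 and 116 on array 2. Its log2 ratios of -0.75 and -0.10 ran with those of *Islr*, low on array 1 alone. *Stra6* did not pass the filter and was named after its values were seen. *Islr2* lies 9.58 Mb from the *Zbtb16* probe and 1.58 Mb from the *Lingo1* RefSeq probe on chromosome 9. For genes this close to the mutated gene, the loss of Plzf and other sequence carried along with the luxoid allele cannot be told apart. As the labels give no strain for the luxoid embryos, strain and mutation cannot be told apart for genes elsewhere either.

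**Figure D4:**
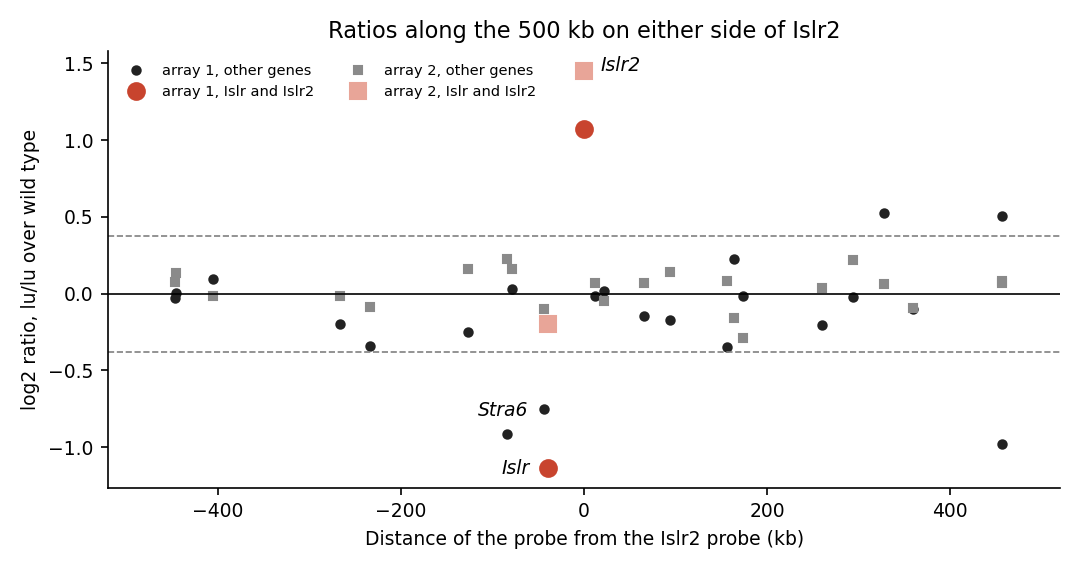
Log2 ratio of lu/lu to wild type (vertical axis) against the distance of each probe from the *Islr2* probe in kb (horizontal axis), for the brightest probe of the 22 other gene names well above background (black, array 1; grey, array 2) and for *Islr* and *Islr2* (red and pale red). Dashed lines mark a ratio of 1.3 in either direction. *Islr2* alone lies above the upper line on both arrays, and *Islr*, *Stra6* and 2 other names lie below the lower line on array 1 alone.

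Of 37 other membrane leucine-rich repeat genes, 26 were well above background, and 13 of these stayed within 1.3-fold on both arrays. The share of all genes that stayed within it is not given here, so nothing is read from this count. The list holds the remaining Lingo, Lrig and Lrrn genes and the Flrt, Lrrtm, Slitrk, Lrrc4, Amigo, Elfn, Lrfn and Lrtm families, which serve adhesion and synapse formation, together with *Tpbg*, *Lrrc24* and *Lrrc17*. Of 11 that passed the filter, 1 was beyond 1.3-fold higher and 1 beyond 1.3-fold lower, against 2.58% and 0.736% over all genes. Limma called 0 at adjusted p under 0.05 (lowest 0.0508), and at an unadjusted p under 0.05 it called 2 higher and 4 lower, against 15.7% and 12.1% over all genes. The median log2 ratio of the 11 was -0.03 on array 1 and -0.01 on array 2. *Lrtm1* was the higher one, with log2 ratios of 0.46 and 0.70, and *Lrrc17*, a secreted repeat protein, was the lower one, with -0.61 and -0.50. The study selected *Lrtm1* and *Lrrc17* on these arrays, so their direction is not independent evidence.

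Of 16 receptors well above background in the pathways on which the Islr2, Lingo1 and Lrig proteins are known to act, 8 stayed within 1.3-fold on both arrays. Here too the share of all genes is not given, and nothing is read from the count. *Gfra4*, a GDNF family co-receptor with a bright probe, was at -0.43 on array 1 and -0.06 on array 2 (log2 ratio), and *Gfra2*, a co-receptor below the signal minimum, was at 0.43 and 0.41, both named after their values were seen. *Ret* and *Rtn4r*, the Nogo receptor, were not well above background in all channels. Of 19 receptors, 7 passed the filter, among them *Erbb2*, *Erbb4*, *Ngfr* and *Tnfrsf19*, and 0 were beyond 1.3-fold on both arrays. Their median log2 ratio was -0.08 on array 1 and -0.09 on array 2, and limma called 0 of the 7 at adjusted p under 0.05 (lowest 0.101) and 1 at an unadjusted p under 0.05. Of 21 ligands of these receptors, 5 passed, among them *Nrtn* and *Rtn4*, and 0 were beyond 1.3-fold on both arrays. The median log2 ratio of the 5 ligands was 0.33 on array 1 and 0.01 on array 2. Limma called 0 of the 5 ligands at either threshold, with a lowest adjusted p of 0.184. Over all genes, 2.58% were higher and 0.736% lower by the fold rule. At an unadjusted p under 0.05 limma called 15.7% of all genes higher and 12.1% lower. Counts of 0 or 1 among 7 receptors and 5 ligands therefore say little about these pathways.

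Markers of several cell types differed between genotypes on one array or both, and their part in the ratios of the 8 genes was not tested. All 16 neuroepithelial markers were well above background, with median log2 ratios of 0.15 on array 1 and 0.27 on array 2. All 22 markers of postmitotic neurons were well above background. Their median log2 ratio was 0.06 on array 1 and 0.60 on array 2, and their summed signal went from 15764 in wild type to 17589 in lu/lu on array 1 and from 14162 to 22314 on array 2. The median of the neuron markers and the *Lrrn1* signal differed between genotypes mainly on array 2. *Islr2* differed on both arrays, more so on array 2, and *Lrrn3* on both. Of the 17 neuron markers that passed the filter, 2 were beyond 1.3-fold higher on both arrays, against 2.58% of all genes. These were *Stmn3*, a microtubule regulator that the study selected on these arrays, with log2 ratios of 0.40 and 1.12, and *Elavl4*, a neuronal RNA-binding protein, with 0.40 and 0.75. Limma called 0 of the 17 at adjusted p under 0.05 (lowest 0.0583) and 11 at an unadjusted p under 0.05, all of them higher, against 15.7% of all genes. Of the 14 neuroepithelial markers that passed, limma called 0 at adjusted p under 0.05 (lowest 0.0516). At an unadjusted p under 0.05 it called 6 as higher, against 15.7% of all genes. Of the 14, 2 were beyond 1.3-fold higher on each array, against 2.58% of all genes. These were *Sox2*, with 0.44 and 0.47 and selected by the study on these arrays, and *Cdh2*, with 0.60 and 0.44.

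Of 18 markers of cranial ganglia and motor neurons, where *Islr2* is known to be expressed, 11 were well above background, with medians of 0.25 and 0.31 and a summed signal of 10809 and 9928 in wild type and 15178 and 14211 in lu/lu. Most of that sum was *Eya1*, and without it, a choice made after its values were seen, the sum was 1640 in wild type and 1730 in lu/lu on array 1, and 1732 and 1924 on array 2. *Tlx3*, *Neurod4*, *Mnx1*, *Avil* and *Ret* were among those that were not. Of 3 that passed the filter, *Eya1* was beyond 1.3-fold higher, with 0.55 and 0.58. *Neurod1*, a neuronal differentiation factor below the signal minimum and singled out after its values were seen, had log2 ratios of 1.40 and 1.47, close to those of *Islr2*.

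Blood markers, like *Islr*, were low on array 1 alone, and whether blood content bears on the *Islr* ratio was not tested. *Alas2*, given above as the gene nearest to *Islr*, is among these blood markers. All 12 erythroid markers were well above background, with a median log2 ratio of -0.95 on array 1 and 0.02 on array 2. Their summed signal was 471022 in the wild type sample of array 1, 252175 in lu/lu on array 1, 195568 in wild type on array 2 and 238610 in lu/lu on array 2. The wild type sample of array 1 was thus highest for blood markers as it was for *Islr*. Of 24 mesenchymal markers, 23 were well above background (all but *Thy1*), and their median was -0.05 on array 1 and -0.04 on array 2, with summed signals of 44078 and 39732 in wild type and 46992 and 40226 in lu/lu. On array 1, all 12 blood markers and 3 of the 23 mesenchymal markers were beyond 1.3-fold lower, as *Islr* was. So were 10 of 17 endothelial, 5 of 22 neuron, 2 of 11 ganglion and 2 of 16 neuroepithelial markers well above background. The share of all genes well above background that were lower on array 1 was not counted. Endothelial markers had a median log2 ratio of -0.50 on array 1 and -0.74 on array 2 over 17 genes. The medians of the 7 that passed averaged -0.51 over the arrays, and 0.00 under a median centring that moves the median of all genes by 0.55. Of the 7, 3 (*Emcn*, *Plvap* and *Icam2*, which the study selected on these arrays) were beyond 1.3-fold lower on both arrays, against 0.736% of all genes, as were 10 of the 17 well above background, against 2.07%.

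**Figure D5:**
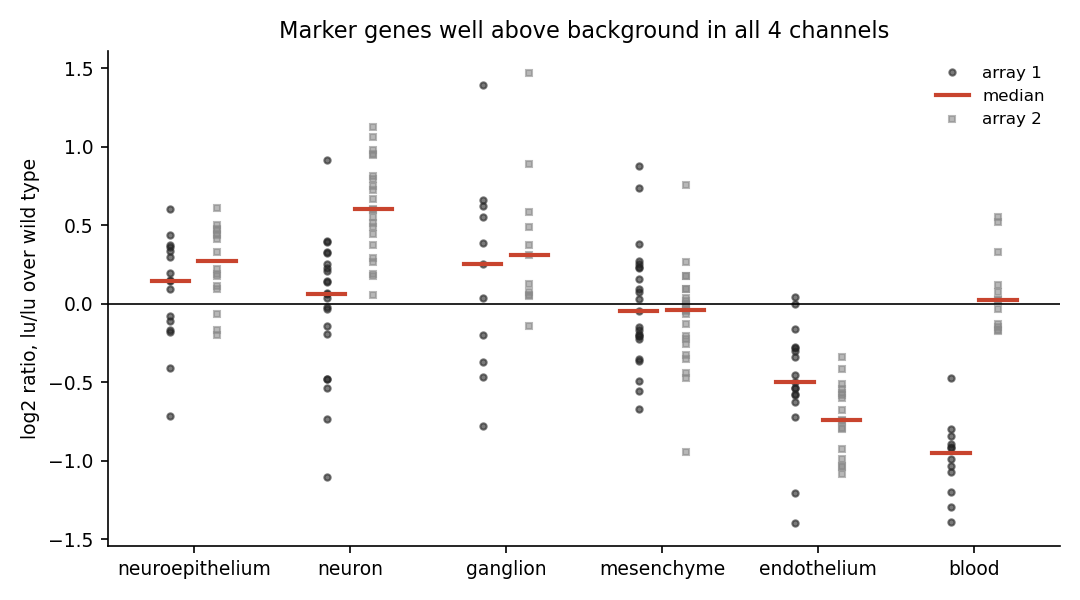
Log2 ratio of lu/lu to wild type (vertical axis) of each marker gene well above background in all 4 channels, by list, on array 1 (black circles) and array 2 (grey squares), with the median of each list and array as a red bar. Neuron markers are high on array 2 and near 0 on array 1, blood markers are low on array 1 alone, and mesenchymal markers centre on 0 on both arrays.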

How the data were processed

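RNA of wild type (Cy3) and Plzf lu/lu (Cy5) E10.5 brain was hybridized to 2 arrays. The authors scanned them and used Feature Extraction 10.7.3.1, whose output is background-subtracted and dye-corrected (LOWESS on rank-consistent probes), separately for each array. Deposited are spot intensity values (processed, raw and local background) and a log10 ratio, Cy5 over Cy3. The deposited log2 value table differed by at most 0.005 from the log2 of that ratio at all 62976 features. No normalization between arrays was applied, and the number of arrays limits the precision. Probe positions are on mm9.

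Control spots and outlier spots (137 and 126 of 59305 gene spots) were left out, spots of a probe averaged on the log2 scale, and the brightest probe stood for a gene in counts. Genes passed with a signal above 200 and a signal-to-noise ratio (spot mean less background median, over the background SD) of at least 5 in all 4 channels. The log2 ratios of all genes that passed were fitted with limma 3.58.1 in R 4.3.3 with Benjamini-Hochberg adjustment, which pools variance because 2 arrays leave 1 residual degree of freedom. An exact sign-flip test of 1 gene on 2 arrays cannot go below p = 0.5. The procedure was tested on simulated data. The 8 genes, the lists and the alternatives were chosen with earlier results of these data known. Named from the lists are genes beyond 1.3-fold on both arrays (at most 6), each passing gene within 500 kb of *Islr2*, and the 5 and 3 genes nearest to *Islr2* and *Islr* by Euclidean distance. Figures were drawn with matplotlib 3.10.9 in Python 3.11.15. Some genes that this rule or the lists hold are counted but not reported here by name.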

Additional observations from a re-analysis of the deposited data

How the results depend on the processing

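The log2 ratio of *Islr2* stayed positive under every alternative run, from 1.17 to 1.59 with both arrays. The highest value, 1.59, came from normexp with median centring, which moves the median of all passing genes by 0.55; relative to that median *Islr2* was at 1.03. With 1 array left out it lay between 1.07 and 1.45. The gap to *Islr* lay between 1.68 and 1.93 with both arrays, and between 1.65 and 2.21 with 1 array left out. *Lrrn3* stayed between 0.80 and 1.10. With both arrays, *Lrrn1* lay between 0.03 and 0.97, and with 1 it had the sign of the array kept, -0.21 without array 2 and 1.43 without array 1. The 0.03 came from averaging its probes, which takes in the probe not well above background in any channel. The next lowest value, with the GC trend removed, was 0.53.

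With median centring, 3 of the 8 genes were beyond 1.3-fold higher, as were 6697 of all genes, with 4 lower. Among the other repeat genes it gave 7 higher and 0 lower, among receptors 1, among ligands 3 and within 500 kb of *Islr2* 5 higher. With spots well above background, 2 of the 8 genes, 586 of all genes and 1 receptor were higher, and 481 of all genes lower. Without a filter, these were 2 of the 8 genes, 1695 of all genes, 3 receptors, 1 ligand and 3 other repeat genes higher, and 2173 of all genes, 2 other repeat genes and 1 gene of the region lower. At 1.5-fold, 41 genes were higher and 12 lower. With 1 array, 481 to 881 of all genes were higher and 215 to 619 lower, 2 to 2 other repeat genes were higher and 1 to 2 lower, 0 to 2 genes of the region were higher, and 0 to 1 receptor was lower.

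Limma's count of higher genes at adjusted p under 0.05 (3) became 0 without a filter, with spots well above background, under normexp with loess, with the value table the authors deposited, with probes averaged and with no replicate block, 1 under the filter in at least 1 channel and with the GC trend removed, 293 with the eBayes trend and 9637 with median centring. Its count of lower genes (0) became 1 under the filter in at least 1 channel, 100 with the trend and 7 with median centring. Apart from the shift of the median and the number of genes tested, the cause was not tested. Dim signal limits *Islr*, *Lrrn2* and *Lrrn3*, and *Lingo1* was not measurable.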
